A study of Mus musculus with 36 samples.

Results

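Liver RNA of PB-treated mice was compared between 2 mouse strains, B6C3F1 (5 mice) and C57BL/6 (5 mice), by RNA-seq. These 10 samples were taken by their labels from the 36 samples of the series, 18 of which are RNA-seq. All mice were male, and the PB groups drank water with 0.05% (wt/vol) phenobarbital (PB) over 91 days, after which the liver was taken. The 8 RNA-seq samples of vehicle-treated mice, 4 of each strain, served to ask which of the differences under PB were not also found without the drug. C57BL/6 is an inbred strain, whereas B6C3F1 mice are hybrids of a C57BL/6 mother and a C3H/He father, so both groups carry C57BL/6 alleles. The C57BL/6 mice came from Taconic at an age of 9 to 11 weeks, the B6C3F1 mice from Charles River at 4 to 5 weeks, and the strains belonged to separate studies. Strain therefore cannot be told apart from supplier, age or study in any comparison below, and RNA reads of both strains were aligned to the genome of C57BL/6J only. For the DNase-seq reads of B6C3F1, used further below, the authors also tried an imputed C3H/HeJ genome. They report almost no difference and kept the C57BL/6J alignment.

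PB activates the nuclear receptor CAR (gene Nr1i3) in hepatocytes, which then transcribe genes of drug metabolism, cytochrome P450 enzymes of the Cyp2b and Cyp2c families foremost. Long-term PB promotes liver tumors in mice, and strains differ in how readily such tumors form, with C3H-derived mice known as sensitive and C57BL/6 mice as resistant. Liver RNA also differs between inbred strains without any drug, in gene families such as the major urinary proteins (Mup), the histocompatibility genes and the interferon-inducible genes.

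CPM stands for reads per 1000000 reads after scaling of the libraries, and the CPM of the 5 mice of a group are given in the order of mouse number, 1 to 5 (1, 2, 3 and 5 in the vehicle groups). Reads counted in genes were 27.0 to 29.7 M per PB-treated B6C3F1 mouse and 23.8 to 27.8 M per PB-treated C57BL/6 mouse (M, 1000000 reads). Across all genes, log2 CPM of mice of the same group correlated at r = 0.983 to 0.994, and those of mice that differed in strain and treatment at 0.968 to 0.977, as a description of pairs of samples. The log2 FC is B6C3F1 minus C57BL/6 on the log2(CPM + 0.1) scale, which understates differences of low genes, and is given ± SE. FDR is the Benjamini-Hochberg adjusted p of limma over all 13838 genes tested, and a gene was called where the FDR was at most 0.01 and |log2 FC| at least 0.58. As a check of the treatment, Cyp2b10, the P450 most used as a sign of CAR activation, was at 897, 1489, 1063, 1196 and 1323 CPM in PB-treated C57BL/6 mice and at 1662, 1179, 1737, 1381 and 1634 CPM in PB-treated B6C3F1 mice. Against vehicle Cyp2b10 rose by 7.07 (C57BL/6) and 7.13 (B6C3F1) on the log2 scale, and the strains overlapped under PB (log2 FC 0.35 ± 0.27, FDR 0.346).

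Under PB, 727 of 13838 genes (5.25%) were called different between the strains, 331 (2.39%) higher and 396 (2.86%) lower in B6C3F1. In 630 of the 727 the 10 mice did not overlap, against 18.8% of all genes tested. Of 84 called genes with |log2 FC| ≥ 2, 65 were higher in B6C3F1, and all 30 with |log2 FC| ≥ 3 were higher in B6C3F1. The median log2 FC over all genes was -0.01.

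In vehicle, 503 genes (3.63%) were called, 239 (1.73%) higher and 264 (1.91%) lower in B6C3F1. The vehicle groups share no mouse with the PB groups. 322 genes were called in both comparisons, which is 44.3% of the PB calls and 64.0% of the vehicle calls, and all 322 had the same sign. Their median |log2 FC| was 1.15 under PB and 1.17 in vehicle. The other 405 genes (2.93%), 167 higher (1.21%) and 238 lower (1.72%) in B6C3F1, were called under PB and not in vehicle, and 181 were called in vehicle and not under PB. Over all 13838 genes the strain differences under PB and in vehicle correlated at r = 0.76, as a description across genes.

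**Figure D1:**
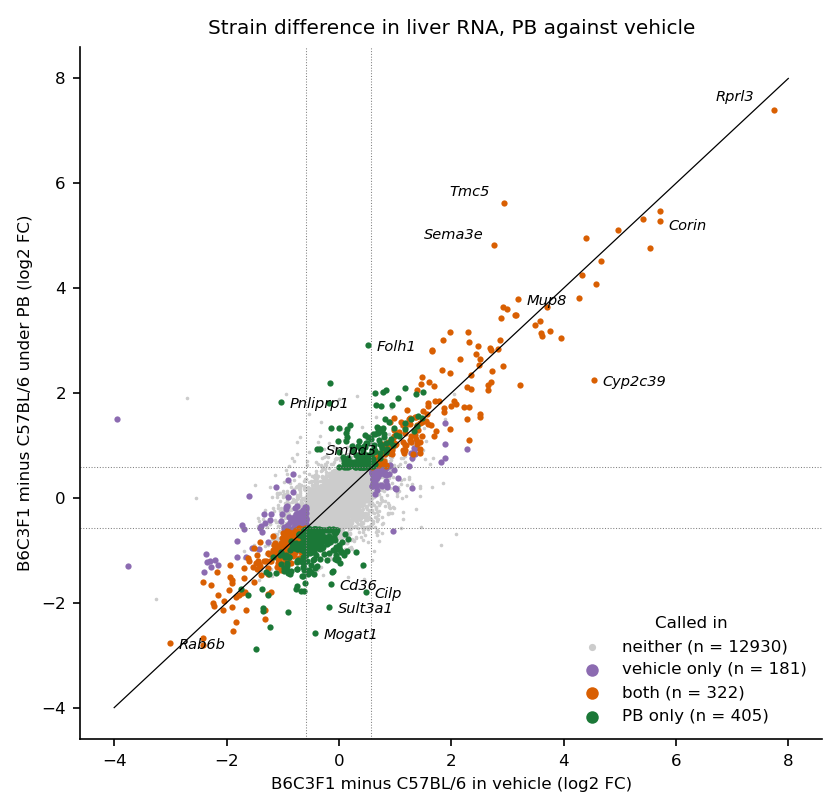
Strain difference in liver RNA (log2 FC, B6C3F1 minus C57BL/6) in vehicle on the x axis and under PB on the y axis, 1 point per gene, coloured by the comparison in which the gene was called, with the line of equal differences. The 322 genes called in both lie at the upper right and lower left. The 405 genes called under PB only lie nearer to 0 on the x axis than on the y axis, which their choice by calls favors, with Smpd3, Pnliprp1 and Cilp across 0.

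Among the largest differences were genes read in B6C3F1 livers and nearly silent in C57BL/6 livers, with or without PB, such as Corin, H2-Ea-ps, C1rb and C1s2. Corin, a serine protease that activates the atrial natriuretic peptide precursor, was at 0.420, 0.395, 0.159, 0.234 and 0.291 CPM in C57BL/6 and at 17.8, 18.2, 16.8, 17.9 and 14.9 CPM in B6C3F1 mice (log2 FC 5.47 ± 0.22, FDR 6.44e-14). In vehicle the difference was a log2 FC of 5.71. H2-Ea-ps, annotated in the C57BL/6J reference as a pseudogene of the histocompatibility class II E alpha chain, had no read in any of the 5 C57BL/6 mice and 4.08, 4.23, 3.35, 3.18 and 4.86 CPM in B6C3F1. Set against a floor of 3 reads over the C57BL/6 group, it was at least 172-fold higher under PB and at least 160-fold higher in vehicle (counting error only). C1rb and C1s2, neighbouring copies of the complement genes C1r and C1s on chromosome 6, were at 0 to 0.0796 and 0.499 to 0.631 CPM in C57BL/6 and at 4.32 to 5.28 and 18.7 to 23.5 CPM in B6C3F1, respectively (log2 FC 5.11 ± 0.22 and 4.95 ± 0.14). These 4 genes were picked only from genes whose PB-treated mice did not overlap between the strains, so their lack of overlap under PB follows from that choice.

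Cyp46a1, a P450 that hydroxylates cholesterol and is best known from neurons, was at 1.89, 2.16, 2.51, 1.05 and 1.45 CPM in C57BL/6 and at 58.3, 60.2, 33.8, 53.6 and 48.2 CPM in B6C3F1 mice under PB (log2 FC 4.76 ± 0.20, FDR 2.59e-11, 27.2-fold). The vehicle difference of Cyp46a1 was a log2 FC of 5.53 ± 0.22. Hist1h2al, a histone H2A gene annotated as a pseudogene, had 2 reads in all C57BL/6 PB mice together and 356 in B6C3F1, a ratio of 169.6 after scaling with a 95% counting interval of 46.6 to 1406. Sema3e, a secreted semaphorin, was at 0.0350, 0.144, 0.119, 0.117 and 0.0415 CPM in C57BL/6 and at 5.74, 4.16, 7.41, 3.35 and 6.23 CPM in B6C3F1 (log2 FC 4.83 ± 0.30, FDR 1.99e-10). The difference of Sema3e in vehicle was 2.77 ± 0.34. The PB response was 2.22 in B6C3F1 and 0.16 in C57BL/6 on the log2 scale, and the test of that change in difference did not pass (FDR 0.131).

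Rprl3, a copy of the RNA component of ribonuclease P, had the largest log2 FC of all genes (0 to 0.318 CPM against 22.7 to 25.4 CPM, log2 FC 7.41 ± 0.28, FDR 3.80e-14). Lars2, the mitochondrial leucyl-tRNA synthetase, was at 18.5, 18.4, 21.9, 18.2 and 22.5 CPM in C57BL/6 and at 584, 628, 887, 924 and 928 CPM in B6C3F1 mice (log2 FC 5.28 ± 0.23, FDR 5.88e-10). Several other short or structured RNAs moved with them, looked up after these values were seen. Mir6236 was at 15.2 to 22.8 against 65.1 to 100.2 CPM, Snora61 at 0.0359 to 0.210 against 3.40 to 4.87 CPM, and Rn45s, the precursor of ribosomal RNA, at 1865 to 2797 against 3597 to 4661 CPM, each without overlap. Rpph1, the main RNA of ribonuclease P, was at 796 to 958 against 1179.6 to 1352 CPM (FDR 0.0188), and Rmrp at 339.8 to 469.6 against 396 to 469 CPM (FDR 0.652), neither called. Libraries were made from total RNA after removal of ribosomal RNA, and whether that step bears on Lars2, Mir6236 and Rn45s was not tested.

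No called gene lower in B6C3F1 reached a |log2 FC| of 3. Gpx6, of the glutathione peroxidase family, had the lowest log2 FC among called genes, with 2.87, 8.91, 9.99, 4.05 and 6.02 CPM in C57BL/6 and 0.528, 0.599, 1.12, 1.38 and 0.288 CPM in B6C3F1 (log2 FC -2.89 ± 0.48, FDR 3.83e-04, vehicle log2 FC -1.47, vehicle FDR 0.0655). Rab6b, a small GTPase of Golgi transport, was at 0.806 to 1.54 against 0 to 0.262 CPM under PB and lower in vehicle as well (log2 FC -2.77 and -3.01). So were R3hdml (-2.68 and -2.42), the alpha-kinase gene Alpk3 (-2.31 and -1.32) and the predicted genes Gm13251 (-2.80 and -2.42) and Gm13152 (-2.37 and -1.83) on chromosome 4. The calls of Olig1, a transcription factor known from oligodendrocytes (4.48 to 6.96 against 0.528 to 2.21 CPM, log2 FC -2.47 ± 0.34, FDR 4.97e-05), and of G6pc2, a glucose-6-phosphatase subunit of pancreatic islets (4.78 to 11.2 against 0.656 to 3.63 CPM, log2 FC -2.18 ± 0.44, FDR 0.00204), were made under PB and not in vehicle (FDR 0.0305 and 0.217). With 4 against 4 PB mice G6pc2 lost its call (log2 FC -1.88, FDR 0.0110). All genes of this paragraph were picked only from genes whose PB-treated mice did not overlap between the strains, so their lack of overlap follows from that choice.

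**Figure D2:**
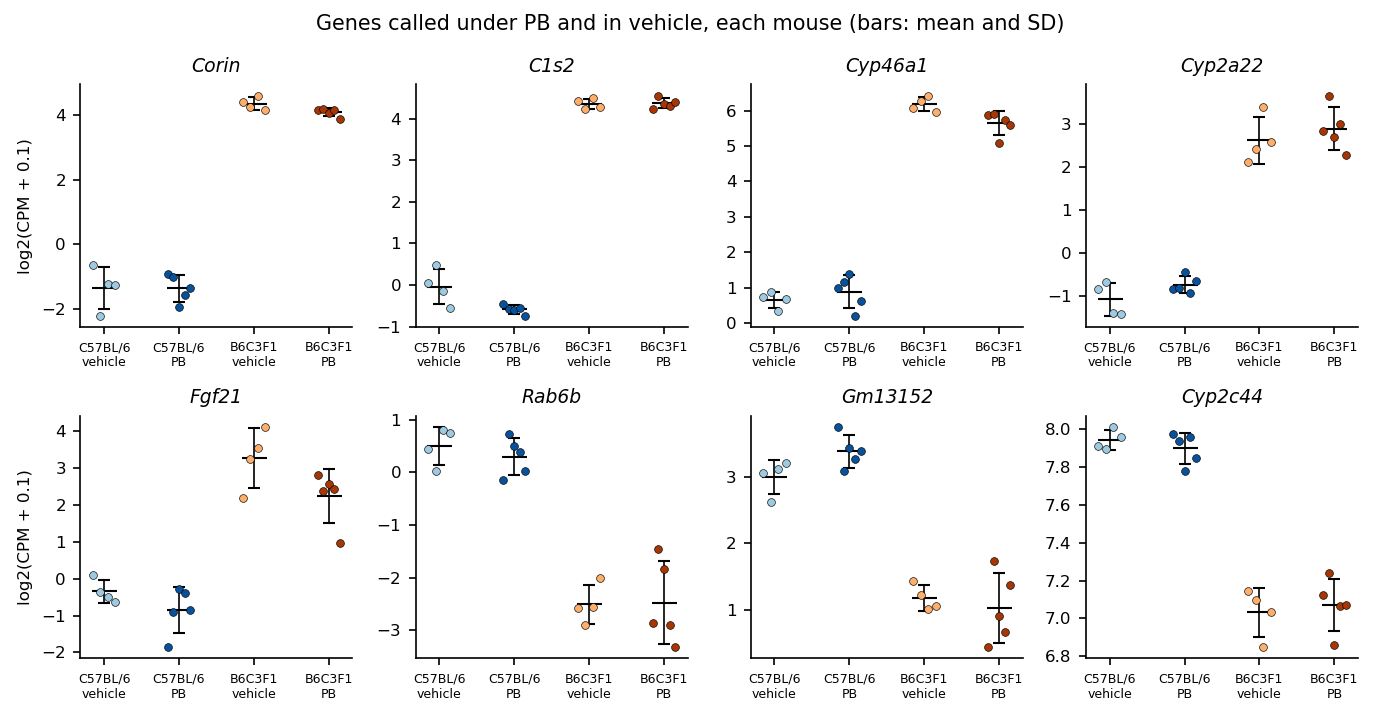
CPM of each mouse on a log2(CPM + 0.1) axis for 8 genes called under PB and in vehicle, by strain and treatment, with the mean and SD of each group (4 vehicle-treated or 5 PB-treated mice). Corin, C1s2, Cyp46a1, Cyp2a22 and Fgf21 sit higher and Rab6b, Gm13152 and Cyp2c44 lower in both B6C3F1 groups.

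Near-identical gene copies make some of these values uncertain, since only uniquely aligned reads were counted and those of C3H alleles were placed on C57BL/6J sequence. That holds for the Mup, Cyp2c, Cyp2a, H2, Hist1, Hspa1a and Hspa1b, C1r and C1s, Ifi202b, Trim30 and zinc-finger Gm genes, and what share of a difference is alignment was not tested.

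The 405 genes called under PB and not in vehicle mostly had a difference of the same sign in vehicle. Of these, 383 (94.6%) had the same sign, 252 had an unadjusted vehicle p under 0.05, and their median |log2 FC| was 0.86 under PB and 0.48 in vehicle. In 132 the vehicle difference reached |log2 FC| ≥ 0.58 but not the FDR, and in 43 it reached the FDR but not the size. A small and uncalled vehicle difference, with |log2 FC| under 0.58 and an unadjusted limma p of 0.05 or more, was seen in 136 genes, 47 higher and 89 lower in B6C3F1 under PB. For 61 of the 405 (29 higher, 32 lower) the 95% confidence interval of the vehicle difference lay within ±0.58, which is the number for which these data bound the vehicle difference below the threshold. The vehicle groups have 1 mouse fewer per strain, and with 4 against 4 PB mice (without those numbered 4) the PB calls came to 558 and those not called in vehicle to 286. Conversely, the 181 genes called in vehicle and not under PB had a median |log2 FC| of 0.45 under PB and 0.76 in vehicle. Of them, 173 had the same sign under PB. A choice by calls favors the comparison in which the calls were made, so neither pair of medians shows a change with PB.

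Whether the strain difference itself changed with PB was tested directly, as the difference under PB minus that in vehicle, which is the same quantity as the difference between the PB responses of the strains. No gene was called (0 of 13838, limma, smallest FDR 0.0197), with 1093 genes at an unadjusted p under 0.05, and edgeR called 0 and DESeq2 15. The median SE of this term over the 405 genes was 0.27 on the log2 scale. At an FDR of at most 0.05 there were 5 genes, Smpd3, Nostrin, Tmc5, P2rx4 and Myo9a, and among the 405 genes it was met by Smpd3 and Myo9a only.

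Smpd3, a neutral sphingomyelinase that releases ceramide from sphingomyelin (chr8:106252548-106337965, GRCm38), was at 14.1, 16.3, 14.7, 14.7 and 15.1 CPM in C57BL/6 and at 33.7, 20.5, 35.2, 25.5 and 31.2 CPM in B6C3F1 mice under PB (log2 FC 0.93 ± 0.14, FDR 3.25e-05). In vehicle it was at 2.78, 3.11, 2.98 and 2.89 CPM in the 4 C57BL/6 and at 2.51, 1.54, 2.43 and 2.60 CPM in the 4 B6C3F1 mice (log2 FC -0.38 ± 0.15, FDR 0.079). PB raised Smpd3 in both strains, by 3.63 (B6C3F1) and 2.31 (C57BL/6) on the log2 scale, and the change in strain difference was 1.32 ± 0.20 (FDR 0.0197). Leaving out 1 mouse in turn kept this FDR at or below 0.05 in 15 of 18 fits, and it was highest, 0.0611, without C57BL/6 vehicle mouse 5.

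Myo9a, an unconventional myosin (chr9:59750848-59928866), was lower in B6C3F1 under PB, at 28.9, 29.8, 30.2, 28.9 and 23.3 CPM against 53.3, 57.7, 52.8, 59.8 and 50.1 CPM in C57BL/6 (log2 FC -0.96 ± 0.07, FDR 5.04e-09). The vehicle difference of Myo9a was in the same direction and below the size threshold (22.6, 19.5, 22.4 and 24 against 28.4, 31.0, 27.5 and 25.5 CPM, log2 FC -0.34 ± 0.08, FDR 0.00575). Its change in difference was -0.61 ± 0.11 (FDR 0.0482), held in 5 of 18 fits without 1 mouse, with the highest FDR of 0.138 without C57BL/6 vehicle mouse 5.

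Tmc5, of the transmembrane channel-like family (chr7:118597297-118675085), was called in both comparisons, yet its difference was larger under PB. The C57BL/6 mice had 0.0350, 0, 0, 0.0390 and 0.0415 CPM under PB, 3 reads in all, against 7.29, 7.75, 6.94, 4.08 and 4.57 CPM in B6C3F1, a ratio of 266 with a 95% counting interval of 90.8 to 1293. In vehicle the ranges were 0.0379 to 0.241 and 0.907 to 2.78 CPM, and the change in difference was 2.70 ± 0.45 on the log2(CPM + 0.1) scale (FDR 0.0197, 0.0611 without C57BL/6 vehicle mouse 5 and 0.199 with edgeR and DESeq2 size factors). P2rx4, an ATP-gated ion channel, was at 41.5 to 53.2 CPM in C57BL/6 and at 61.1 to 71.9 CPM in B6C3F1 under PB, without overlap, and at 37.8 to 42.3 and 40.3 to 41.2 CPM in vehicle. Its log2 FC of 0.58 under PB fell just short of the size threshold, passed it in 5 of 18 fits without 1 mouse, and changed by 0.56 ± 0.09 from vehicle (FDR 0.0197, highest 0.0653 without C57BL/6 vehicle mouse 2). Nostrin, which binds endothelial nitric oxide synthase, changed sign, from -0.38 in vehicle to 0.28 under PB, with neither difference called (change 0.66 ± 0.11, FDR 0.0197, highest 0.0611 without C57BL/6 vehicle mouse 5).

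The next genes of the 405 by the smallest p for that change, of which 8 higher and 8 lower in B6C3F1 are described, did not pass an FDR of 0.05, and their differences under PB and in vehicle are given side by side. Cyp2c66, Pnliprp1 and Ccl9 rose with PB in both strains and stood higher in B6C3F1. Cyp2c66, a P450, had 1 read in all vehicle mice of each strain and under PB 7.08, 11.8, 7.04, 15.9 and 15.9 CPM in C57BL/6 and 33.0, 24.5, 30.8, 23.8 and 26.3 CPM in B6C3F1 (log2 FC 1.33 ± 0.22, FDR 1.17e-04, 2.52-fold). Pnliprp1, a relative of pancreatic lipase, was at 2.38 to 3.52 against 7.60 to 14.4 CPM under PB (log2 FC 1.84 ± 0.37, FDR 0.00112) with a vehicle log2 FC of -1.02 ± 0.41. Ccl9, a chemokine of myeloid cells, was at 77.0, 86.4, 70.1, 70.4 and 71.5 CPM in C57BL/6 and at 159.6, 142, 152, 146 and 142 CPM in B6C3F1 (log2 FC 0.98 ± 0.07, FDR 1.45e-09), with 0.45 ± 0.08 in vehicle. These 3 genes did not overlap between the strains under PB.

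Src, the founding tyrosine kinase of its family, was at 3.05, 3.99, 2.87, 3.94 and 3.74 CPM in C57BL/6 and at 8.04, 6.56, 11.2, 8.22 and 5.04 CPM in B6C3F1 under PB (log2 FC 1.09 ± 0.17, FDR 9.30e-05), and in vehicle at 1.93, 2.73, 1.85 and 2.39 CPM in C57BL/6 and at 3.08, 2.25, 2.18 and 2.27 CPM in B6C3F1 (log2 FC 0.14 ± 0.20, FDR 0.665). Folh1, a carboxypeptidase that acts on folates, had 0, 0.0718, 0.239, 0.195 and 0 CPM in C57BL/6 and 1.43, 0.787, 2.12, 1.17 and 1.01 CPM in B6C3F1 (log2 FC 2.92 ± 0.37, FDR 4.63e-06), and in vehicle 0 reads in C57BL/6 and 5 in B6C3F1. The lncRNA 1810053B23Rik (2.18 under PB, -0.16 in vehicle) and Cnp, a phosphodiesterase of myelin (0.68 and 0.22), were also called under PB only. Slc37a1, a phosphosugar transporter of the endoplasmic reticulum, was at 1.95 to 2.27 against 2.17 to 5.87 CPM with 1 B6C3F1 mouse, number 2, within the C57BL/6 range (log2 FC 0.94 ± 0.25, FDR 0.00808), and the call was lost in 12 of 18 fits without 1 mouse, with an FDR from just above 0.01 to 0.0251 in those.

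Other genes were lower in B6C3F1 under PB and not called in vehicle. Fitm1, a protein of lipid droplet formation, was at 47.2, 45.8, 55.1, 38.7 and 48.8 CPM in C57BL/6 and at 14.6, 20.9, 12.2, 15.9 and 13.4 CPM in B6C3F1 (log2 FC -1.62 ± 0.14, FDR 2.66e-07, vehicle -0.60 with an FDR of 0.0112). Rfx4, a transcription factor, was at 4.56 to 6.84 against 1.22 to 2.66 CPM (log2 FC -1.46, vehicle -0.44), and Nat8, an acetyltransferase of cysteine conjugates, at 15.8 to 20.1 against 6.51 to 11.3 CPM (log2 FC -1.07, vehicle -0.27).

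Low genes of this kind were Cilp, a cartilage matrix protein (0.499 to 0.97 against 0 to 0.264 CPM, log2 FC -1.79, vehicle 0.48; no longer called with a pseudocount of 1, log2 FC -0.54), Fam19a5, a small secreted protein (-1.17, vehicle -0.07), and Pmm1, a phosphomannomutase (-1.40, vehicle -0.13). Ccng2, a cyclin linked to growth arrest, was at 16.6 to 22.2 against 11.2 to 15.0 CPM (log2 FC -0.60 ± 0.09, FDR 5.74e-05), close to the size threshold, and fell below it without C57BL/6 PB mouse 3 or 5 or B6C3F1 PB mouse 1 (log2 FC -0.57, -0.56 and -0.55) and with a pseudocount of 1. Chpt1, which makes phosphatidylcholine, was at 342 to 421 against 239.6 to 273 CPM (log2 FC -0.59 ± 0.07, FDR 5.22e-06) and likewise fell below the threshold without C57BL/6 PB mouse 5 or B6C3F1 PB mouse 3 or 5 (-0.56 to -0.57). The 5 genes of this paragraph did not overlap between the strains.

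**Figure D3:**
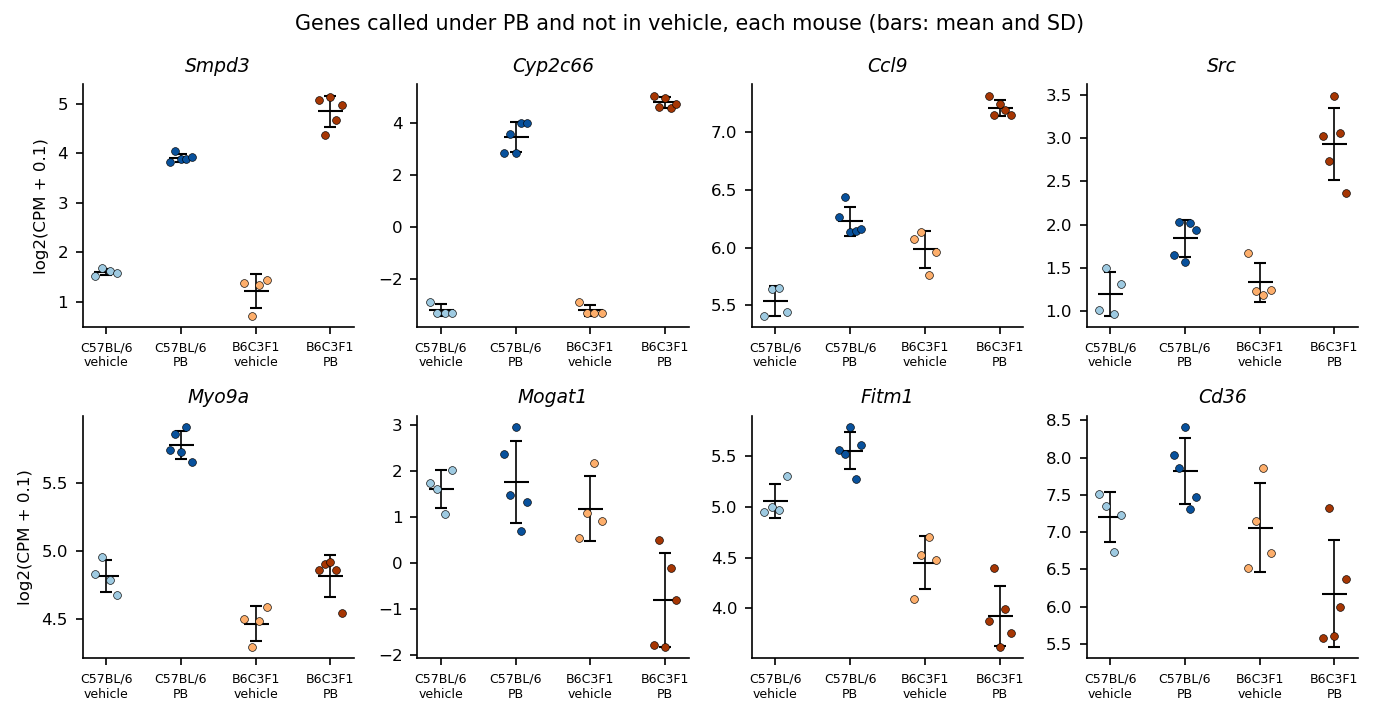
CPM of each mouse on a log2(CPM + 0.1) axis for 8 genes called under PB and not in vehicle, by strain and treatment, with the mean and SD of each group. Smpd3, Cyp2c66, Ccl9 and Src sit higher and Myo9a, Mogat1, Fitm1 and Cd36 lower in PB-treated B6C3F1 than in PB-treated C57BL/6 mice, with 1 B6C3F1 mouse touching the C57BL/6 range in Cd36.

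Chromatin was compared with RNA in the same 10 mice, through DNase I hypersensitive sites (DHSs) that overlap the window from 1000 bp upstream to 100 bp downstream of a transcription start site (TSS). Of 13883 such DHSs, 606 (4.37%) differed between the strains under PB, 423 of them higher in B6C3F1, against 9.72% of all 98170 DHSs (limma on log2(normalized count + 1), same thresholds). Of 535 genes called in RNA that had a TSS DHS, 104 (19.4%) had one that differed, against 513 of 11509 uncalled genes (4.46%). The DHS pointed the same way as the RNA in 100 of the 104, and in 5 genes, Banp, Cyp2c39, H2-DMa, Mup9 and Rtp4, at least 1 pointed the other way, with Mup9 holding one of each. Taking the DHS with the largest difference per gene, 62 of 64 genes called in both comparisons and 37 of 39 called under PB only had the same sign. Over all tested genes whose DHS chosen in this way differed, called in RNA or not, 451 of 610 had the same sign. Across the 535 called genes r was 0.54 and across all 12044 genes with a TSS DHS 0.31, as a description.

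In RNA, Cyp2a22 and Fgf21 were called in both comparisons and Ccl9 and Cd36 under PB only, whereas DHSs were tested under PB alone. Promoter sequences of these 4 genes are shown because RNA and a TSS DHS both differed between the strains under PB. Each runs 5′ to 3′ on the gene's strand from 250 bases before to 50 after the RefSeq start, in the C57BL/6J reference (GRCm38.p6), so C3H alleles may differ from it, and capitals mark bases inside a DHS that differed between the strains.
Cyp2a22: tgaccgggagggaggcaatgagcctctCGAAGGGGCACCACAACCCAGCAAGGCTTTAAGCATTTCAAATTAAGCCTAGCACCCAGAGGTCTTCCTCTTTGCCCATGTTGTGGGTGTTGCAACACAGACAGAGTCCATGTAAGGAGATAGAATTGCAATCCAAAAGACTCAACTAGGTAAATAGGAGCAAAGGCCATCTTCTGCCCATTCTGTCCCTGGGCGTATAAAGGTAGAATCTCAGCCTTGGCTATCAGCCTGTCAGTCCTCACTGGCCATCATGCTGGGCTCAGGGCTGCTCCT
Fgf21: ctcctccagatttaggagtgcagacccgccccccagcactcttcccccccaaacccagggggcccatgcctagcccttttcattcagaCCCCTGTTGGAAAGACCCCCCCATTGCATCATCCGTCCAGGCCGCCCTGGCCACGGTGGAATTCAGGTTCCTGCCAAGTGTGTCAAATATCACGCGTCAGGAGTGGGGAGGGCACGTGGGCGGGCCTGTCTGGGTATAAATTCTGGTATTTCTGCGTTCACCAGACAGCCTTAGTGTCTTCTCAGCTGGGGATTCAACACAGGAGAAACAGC
Ccl9: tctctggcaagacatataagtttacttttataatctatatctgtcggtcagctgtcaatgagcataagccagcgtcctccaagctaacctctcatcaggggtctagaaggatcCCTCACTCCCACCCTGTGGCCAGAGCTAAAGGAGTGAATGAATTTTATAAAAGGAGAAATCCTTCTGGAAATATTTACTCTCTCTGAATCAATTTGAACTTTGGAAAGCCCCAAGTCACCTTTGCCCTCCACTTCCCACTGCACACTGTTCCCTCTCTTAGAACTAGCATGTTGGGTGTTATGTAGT
Cd36: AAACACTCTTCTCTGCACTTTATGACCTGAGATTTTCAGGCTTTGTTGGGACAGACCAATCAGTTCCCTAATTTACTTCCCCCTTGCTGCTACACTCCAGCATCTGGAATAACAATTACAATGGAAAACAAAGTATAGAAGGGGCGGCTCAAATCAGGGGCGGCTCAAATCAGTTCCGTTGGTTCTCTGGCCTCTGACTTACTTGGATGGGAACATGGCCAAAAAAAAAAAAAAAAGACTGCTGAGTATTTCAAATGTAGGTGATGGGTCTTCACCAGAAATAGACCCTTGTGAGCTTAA

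These windows lie at chr7:26939337-26939636 (Cyp2a22), chr7:45615441-45615740 (Fgf21), chr11:83578587-83578886 (Ccl9) and chr5:17835847-17836146 (Cd36), all on the minus strand. A DHS that differed covered 273, 212, 187 and 300 of their 300 bases, respectively. The letters TATAAA, searched on both strands and found in 13.6% of 32851 RefSeq promoter windows of this length, stand on the gene's strand 28 bases before the start in Cyp2a22 and Fgf21 and 92 bases before it in Ccl9. AGGTCA, the nuclear receptor half-site, is found in 16.3% of those windows and, among the 4, in that of Cd36. A match of letters is a description and says nothing of a factor bound there.

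Cyp2a22, a P450 of the Cyp2a family, was at 0.456, 0.467, 0.637, 0.429 and 0.540 CPM in C57BL/6 and at 7.10, 12.7, 6.44, 7.94 and 4.75 CPM in B6C3F1 mice under PB (log2 FC 3.64 ± 0.24, FDR 5.09e-10), and its vehicle difference was 3.71 ± 0.27. The DHS over its start (chr7:26939258-26939609) held 1 read in each C57BL/6 PB mouse, the lowest value that occurs in the deposited table, and 230 to 451 reads in the B6C3F1 PB mice. Against a floor of 3 reads per library its mean normalized count was at least 161-fold higher in B6C3F1, counting error only.

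Fgf21, a hormone that the liver secretes in fasting and stress, was at 0.175, 0.431, 0.716, 0.663 and 0.457 CPM in C57BL/6 and at 6.91, 5.09, 5.83, 5.32 and 1.84 CPM in B6C3F1 under PB (log2 FC 3.09 ± 0.38, FDR 1.64e-05), with 3.62 ± 0.43 in vehicle. Of its 2 TSS DHSs, the one at chr7:45615323-45615652 was at 192, 128, 122, 119.8 and 139 normalized counts in C57BL/6 and at 532, 359.7, 498, 406 and 266 in B6C3F1 (log2 FC 1.53 ± 0.17, FDR 1.93e-06). The other, at chr7:45616258-45616607, was also higher in B6C3F1 (log2 FC 2.31 ± 0.21, FDR 4.50e-07), and neither overlapped between the strains. Both TSS DHSs of Corin were higher as well, 5.37 to 23.3 against 49.6 to 94.4 normalized counts at chr5:72504144-72504377 (log2 FC 2.94 ± 0.34, FDR 1.49e-06) and 13.8 to 25.5 against 56.7 to 112 at chr5:72504664-72504970 (log2 FC 2.37 ± 0.26, FDR 4.93e-07).

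Among genes whose RNA was called under PB only, the Ccl9 DHS (chr11:83578181-83578773) was at 358, 446, 382, 406 and 426 normalized counts in C57BL/6 and at 588, 561, 772, 644 and 742 in B6C3F1 (log2 FC 0.70 ± 0.11, FDR 5.45e-05). In vehicle, where DHSs were not tested, the Ccl9 DHS was at 302 to 348 in C57BL/6 and at 393 to 479 in B6C3F1. Cd36, the fatty acid translocase, was at 263, 233, 340.4, 158 and 177 CPM in C57BL/6 and at 47.8, 160.4, 48.4, 63.5 and 82.6 CPM in B6C3F1 in RNA, where B6C3F1 mouse 2 lay within the C57BL/6 range (log2 FC -1.64 ± 0.35, FDR 0.00291, vehicle -0.14). The Cd36 RNA call was lost when only the 10 PB mice were fitted. Both DHSs at Cd36 starts were lower in B6C3F1, log2 FC -0.63 ± 0.17, FDR 0.00773 over the start shown and log2 FC -0.86 ± 0.21, FDR 0.00559 at chr5:17849642-17849948. Vnn1, a pantetheinase and known PPARA target, was at 106, 74.6, 93.8, 43.0 and 45.7 CPM in C57BL/6 and at 10.8, 19.4, 9.07, 16.6 and 24.7 CPM in B6C3F1 (log2 FC -2.17 ± 0.39, FDR 0.00106, vehicle -1.35 with an FDR of 0.0450), and its DHS at chr10:23894687-23894983 was lower too (172 to 254 against 50.7 to 114 normalized counts, log2 FC -1.45 ± 0.19, FDR 9.70e-06). Under PB the same held for Sult3a1, a sulfotransferase (RNA -2.08, DHS log2 FC -1.48 ± 0.19, FDR 4.21e-06), and Slc22a3, an organic cation transporter (RNA -0.86, DHS log2 FC -1.18 ± 0.29, FDR 0.00494). In vehicle, mean normalized counts of these DHSs in C57BL/6 and B6C3F1 were 165 and 86.6 for Vnn1 and 51.7 and 22.9 for Slc22a3. They were 107 and 93.4 for Sult3a1, 218 and 218 over the Cd36 start shown, and 138 and 157 for the other Cd36 DHS. Cyp2c39 went apart, with RNA higher (2.25; lost with only the 10 PB mice in the fit) and its DHS lower in B6C3F1 (102 to 123 against 212 to 339.8 normalized counts, log2 FC -1.29 ± 0.15, FDR 2.16e-06).

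**Figure D4:**
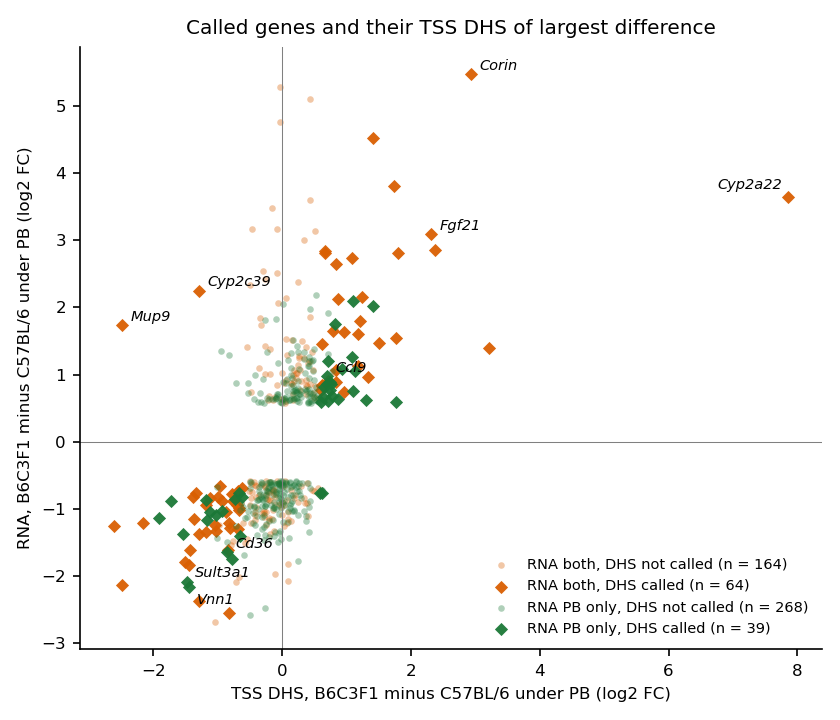
Strain difference under PB of the TSS DHS with the largest difference (x axis, log2 FC) and of RNA (y axis, log2 FC) for the 535 called genes with a TSS DHS, coloured by class, with diamonds for DHSs that differed. Most diamonds lie at the upper right and lower left, Cyp2a22 lies far to the right, and Cyp2c39 and Mup9 lie in the upper left.

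Gene groups were described by their called members beside the background of 2.39% higher and 2.86% lower over all genes and the median log2 FC of -0.01. Heat shock and unfolded protein genes, which help proteins fold, had 9 of 34 called higher and 0 lower (median 0.43, vehicle 3 higher and median 0.35). Hspa1b, an inducible heat shock protein of the Hsp70 type, was at 9.39, 5.28, 7.2, 6.00 and 15.8 CPM in C57BL/6 and at 215, 35.0, 125, 235 and 42.8 CPM in B6C3F1 (log2 FC 3.60 ± 0.53, FDR 2.02e-04). B6C3F1 mice 1, 3 and 4 were far above mice 2 and 5, and all 5 were above every C57BL/6 mouse. In its cochaperone Dnajb1, mice 1, 3 and 4 were again above mice 2 and 5 (19.1 to 26.6 against 46.0 to 160.4 CPM, log2 FC 1.98 ± 0.31, FDR 3.66e-04). Hspa1a (3.48), Hsph1 (1.22), Hsp90aa1 (0.91), Dnaja1 (0.59), Herpud1 (1.13), Ddit3 (1.33) and Creld2 (1.38) made up the rest, of which Hspa1a, like Hspa1b, was also called in vehicle. Dnajb1 and Creld2 had vehicle log2 FCs of 1.38 and 1.39 and missed the FDR there (0.0132 and 0.0180). The count was 5 to 11 over the 30 alternatives, 6 without B6C3F1 PB mouse 4 or C57BL/6 PB mouse 4 and 5 without both, and the Creld2 call was lost in 12 of 18 fits without 1 mouse. With only the 10 PB mice in the fit the count was 6, without Hspa1a and Creld2 among others.

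Interferon-response genes had 16 of 66 called lower and 2 higher in B6C3F1 under PB (median -0.39), against 11 lower and 2 higher in vehicle (median -0.42). Trim12a, of an antiviral family, was at 7.67, 6.47, 8.64, 9.08 and 8.60 CPM in C57BL/6 and at 2.08, 3.00, 2.55, 2.45 and 2.84 CPM in B6C3F1 (log2 FC -1.61 ± 0.12, FDR 1.53e-09), and Ifi204, a DNA sensor, at 6.41 to 8.69 against 2.48 to 4.21 CPM (log2 FC -1.32). The guanylate-binding proteins Gbp2 (-0.91), Gbp3 (-0.87), Gbp4 (-0.85), Gbp5 (-0.97) and Gbp6 (-1.24) were lower, and Gbp2 was also called in vehicle. The 2 higher genes ran the other way by a large margin. Ifi202b, a relative of Ifi204, had 2 reads in all C57BL/6 PB mice and 305 in B6C3F1 (ratio 145 after scaling, 95% counting interval 39.9 to 1205), and Ifi44l had 0 and 125, at least 39.7-fold. The lower count was 13 to 19 over the alternatives.

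Histocompatibility genes had 4 of 28 called higher, all 4 also in vehicle, and 3 lower, all under PB only (median -0.03). H2-Q1, a class Ib gene, was at 1.05, 3.66, 5.29, 0.858 and 1.41 CPM in C57BL/6 and at 16.5, 22.1, 14.8, 19.7 and 17.8 CPM in B6C3F1 (log2 FC 3.16 ± 0.40, FDR 4.55e-05), and H2-Q2 (2.44) and H2-Bl (2.43) were higher beside H2-Ea-ps. The lower ones were H2-DMa (-0.75) and H2-DMb1 (-1.18), which load class II molecules, and Tap1 (-0.62), a peptide transporter. The lower count was 1 without C57BL/6 PB mouse 4.

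Drug-metabolizing P450 and other CAR target genes had 5 of 47 called higher and 4 lower (median 0.11). Besides Cyp2a22 and Cyp2c66, the higher ones were Cyp2c39, at 3.99, 2.73, 4.10, 1.48 and 2.53 CPM in C57BL/6 and 8.95, 25.2, 6.51, 10.2 and 31.6 CPM in B6C3F1 (2.25 under PB, 4.54 in vehicle, FDR of the change 0.351), Cyp3a25 (0.71) and Por (0.58), the reductase that feeds electrons to P450 enzymes. The lower ones were Cyp2c40 (-1.19), Cyp2c44 (-0.83), Cyp3a13 (-0.60) and Cyp2c69 (-1.42), the last at 0.0415 to 0.429 against 0 to 0.0720 CPM and lost in 5 of 18 fits without 1 mouse. The lower count was 2 with a pseudocount of 0.5 or 1 and without C57BL/6 PB mouse 2 or 3 or B6C3F1 PB mouse 3, and the higher count was 8 with DESeq2. Cyp2c55, another PB-induced P450, was at 243 to 449 against 417 to 583 CPM and not called (log2 FC 0.55 ± 0.19, FDR 0.0424). CAR itself (Nr1i3) was at 58.5 to 76.6 against 54.7 to 71.4 CPM (log2 FC -0.06 ± 0.09, FDR 0.67).

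Conjugation and detoxification genes had 4 of 81 called higher and 5 lower (median 0.01), 8 of the 9 under PB only. Ces1b, a carboxylesterase, was at 48.6, 39.8, 43.7, 40.2 and 45.4 CPM in C57BL/6 and at 267, 277, 269.8, 265 and 291 CPM in B6C3F1 (log2 FC 2.65 ± 0.08, FDR 5.00e-15, vehicle 2.16). Sult3a1, which PB induced in both strains, was at 33.4, 20.8, 35.2, 7.64 and 25.0 CPM in C57BL/6 and at 4.94, 9.63, 4.03, 4.01 and 4.18 CPM in B6C3F1 (log2 FC -2.08 ± 0.39, FDR 8.19e-04), with C57BL/6 mouse 4 inside the B6C3F1 range, and was no longer called with only the 10 PB mice in the fit. Its log2 FC in vehicle was -0.17, and PB raised it by 6.97 in C57BL/6 and 5.06 in B6C3F1. The aldo-keto reductase Akr1b7 was higher (0.736 to 2.77 against 2.95 to 12.4 CPM, log2 FC 1.81 ± 0.42, FDR 0.00353), a call lost without C57BL/6 PB mouse 1 or B6C3F1 PB mouse 1 (1.55 and 1.66) and with only the 10 PB mice in the fit. Sult1c2 (1.13, vehicle 0.56 with an FDR of 0.00821, short of the size only) and Ces2a (0.71) were higher too. Nat8 (-1.07, vehicle -0.27), Ugt3a1 (-0.95), Aldh3a2 (-0.93, vehicle -0.28) and Nqo1 (-0.66, vehicle -0.57 with an FDR of 0.0368) were lower, with Nqo1 lost in 6 of 18 fits without 1 mouse. Of 28 transporters, Slc22a3 alone was called (6.06 to 8.75 against 2.45 to 5.17 CPM, log2 FC -0.86 ± 0.17, FDR 7.21e-04).

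Fatty acid synthesis and storage genes had 3 of 46 called higher and 5 lower, all 5 under PB only (median 0.07). Mogat1, which makes diacylglycerol, was at 5.08, 2.66, 7.64, 1.52 and 2.41 CPM in C57BL/6 and at 0.189, 1.31, 0.180, 0.829 and 0.468 CPM in B6C3F1 (log2 FC -2.57 ± 0.49, FDR 0.00122, vehicle -0.42). It was lower together with Cd36, the lipid droplet protein gene Cidec (-1.06), the desaturase Scd2 (-0.65) and Fabp4 (-0.61). The Fabp4 difference was as large in vehicle (-0.62) and missed the FDR there (0.0140). Vehicle-treated B6C3F1 mouse 3 was the highest of its group in Mogat1 and Cd36, which made their vehicle differences smaller. It had 4.40 CPM of Mogat1 against 1.36, 2.02 and 1.79 in the other mice, and 232 CPM of Cd36 against 91.3, 141 and 106. Pparg, a receptor known to act on several of these lower genes, was at 20.8, 14.8, 19.9, 15.3 and 18 CPM in C57BL/6 and at 6.15, 9.70, 6.87, 8.26 and 7.27 CPM in B6C3F1 (log2 FC -1.21 ± 0.16, FDR 1.90e-05, vehicle -0.56 with an FDR of 0.0311). Whether the level of Pparg bears on those genes was not tested. Higher were Agpat9, an acyltransferase (3.1 to 8.00 against 16.0 to 19.6 CPM, log2 FC 1.64 ± 0.19, FDR 5.42e-06), Fabp5 (1.34) and Apoa4 (0.83). Leaving out 1 mouse ended the calls of Fabp4, Fabp5 and Apoa4 in 5, 14 and 11 of 18 fits, and the higher count was 1 in 10 of the 18. The lower count was 2 without C57BL/6 PB mouse 3 and 3 without B6C3F1 PB mouse 4 or with only the 10 PB mice in the fit.

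PPARA target and fatty acid oxidation genes had 1 of 37 called higher, Fgf21, and 4 lower, all under PB only (median -0.15). The lower ones included Vnn1 (vehicle -1.35, vehicle FDR 0.0450), Aldh3a2, a fatty aldehyde dehydrogenase (669, 563, 688, 459.8 and 621 CPM in C57BL/6 and 268, 377, 253, 326 and 353 CPM in B6C3F1, log2 FC -0.93 ± 0.15, FDR 3.57e-04), and Pex11a, a peroxisome gene (21.2 to 32.2 against 12.5 to 17.5 CPM, log2 FC -0.79 ± 0.13, FDR 3.31e-04, vehicle -0.06). Under PB, Vnn1, Aldh3a2 and Pex11a did not overlap between the strains, nor did 630 of the 727 called genes. For Vnn1 this follows from its choice among genes without overlap. Vehicle-treated B6C3F1 mouse 3 was again the highest of its group in these genes. It had 43.8 CPM of Vnn1 against 10.1, 19.7 and 13.5 in the other mice, and 627 CPM of Aldh3a2 against 376, 475 and 391. Pex11a was at 33.4 CPM in it and at 20.4, 27.0 and 20.1 in the others.

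Liver genes with sex-biased levels differed in part. Female-biased genes had 0 of 29 called higher and 5 lower, all under PB only, with a median of -0.53 under PB and -0.01 in vehicle. The 5 were Vnn1, Sult3a1, Cyp2c69, Tox (-1.23) and Cyp2c40, 4 of which stand in other lists here. Male-biased genes had 5 of 31 called higher and 3 lower (median 0.40, vehicle -0.16). In vehicle 3 were called higher and 5 lower, and 6 of the 8 calls under PB were also called in vehicle. Cyp4a12a (125 to 271 against 350.2 to 436 CPM), Gna14 (0.75), Dsg1c (0.91), Mup9 (1.73) and Mup12 (1.77) were higher, and Cyp4a12b (-1.21), Mup1 (-2.01) and Mup11 (-1.50) lower. The female-biased count was 3 with a pseudocount of 0.5 or 1, and 3 without C57BL/6 PB mouse 2 or 3 or B6C3F1 PB mouse 3 or with only the 10 PB mice in the fit. The male-biased higher count was 3 without C57BL/6 PB mouse 3 or B6C3F1 PB mouse 1 or 3.

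Serpin and urinary protein clusters had 5 of 34 called higher and 3 lower (median 0.24), against 3 higher and 8 lower in vehicle (median 0.12). Mup8 was at 2.24, 1.87, 1.91, 4.05 and 3.16 CPM in C57BL/6 and at 42.9, 24.9, 46.2, 40.8 and 32.4 CPM in B6C3F1 (log2 FC 3.80 ± 0.45, FDR 2.91e-05), and Mup10 at 0.358 to 0.546 against 2.80 to 4.53 CPM (log2 FC 2.81 ± 0.24, FDR 2.03e-08), both also called in vehicle. Mup1 ran the other way, at 111, 86.9, 68.6, 161 and 147 CPM in C57BL/6 and 31.8, 19.5, 35.9, 31.6 and 20.7 CPM in B6C3F1 (log2 FC -2.01 ± 0.36, FDR 8.55e-04). Leaving out 1 mouse ended the calls of Mup12 in 8 and of Mup9 in 3 of 18 fits, and the higher count of the list was 3 without C57BL/6 PB mouse 3 or B6C3F1 PB mouse 1 or 3. Its lower count was 5 without B6C3F1 vehicle mouse 3 and 7 with DESeq2. Serpina12, also named vaspin, was higher (1.01) and Serpina3g lower (-1.19), both under PB only.

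Cell cycle genes had 0 of 39 called higher and 5 lower, all under PB only (median -0.37, vehicle -0.13). In vehicle 2 other genes of the list were called lower. Mcm5, of the replicative helicase, was at 3.1, 6.68, 3.90, 4.52 and 6.19 CPM in C57BL/6 and at 1.70, 2.47, 2.16, 3.01 and 0.648 CPM in B6C3F1 (log2 FC -1.34 ± 0.30, FDR 0.0032). With it came Mcm2 (-0.86), Mcm4 (-0.78), the polymerase clamp Pcna (-0.61) and Mybl1 (-1.10), and for Mcm2, Mcm4 and Mcm5 B6C3F1 mouse 5 was the lowest of the 10. Mcm5 was no longer called with only the 10 PB mice in the fit. The count was 2 without B6C3F1 PB mouse 5, 3 without C57BL/6 PB mouse 3 or 4, and 7 without B6C3F1 vehicle mouse 2.

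Smaller groups held few calls. The clock gene Per2 was higher in B6C3F1 under PB (18.9, 19.1, 19.3, 16.7 and 15.0 CPM in C57BL/6 and 34.6, 30.6, 40.2, 52.7 and 34.3 CPM in B6C3F1, log2 FC 1.09 ± 0.17, FDR 2.47e-04), alone among 24 clock genes. The acute-phase list of 38 had Apcs, serum amyloid P, higher (46.8, 54.5, 61.1, 39.5 and 60.9 CPM in C57BL/6 and 194, 199, 185, 171 and 192 CPM in B6C3F1, log2 FC 1.86 ± 0.11, FDR 3.55e-09, vehicle 1.71) and Serpina3g lower. Of 43 nuclear receptor and liver factor genes, Foxa3 was higher (20.5 to 26.3 against 33.7 to 46.6 CPM, log2 FC 0.84 ± 0.11, FDR 1.46e-05) and 2 were lower, Pparg among them. Pericentral genes had the glutamate transporter Slc1a2 (-0.94) and the aminotransferase Oat (-0.77) lower and Tnfrsf19 (0.64) higher among 32, the last lost in 12 of 18 fits without 1 mouse. Periportal genes had Agxt (0.77) and Apoa4 higher and Lgals1 (50.5, 48.3, 64.5, 34.0 and 40.5 CPM in C57BL/6 and 11.1, 19.1, 12.8, 15.4 and 11.9 CPM in B6C3F1, log2 FC -1.74) lower among 28. NRF2 targets had Nqo1 and Cbr3 (-1.43) lower among 28, with Cbr3 lost in 6 of 18 fits, and bile acid genes had Cyp46a1 higher among 21.

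No member was called among 25 cholesterol synthesis genes (median 0.16), 29 glucose and glycogen genes (median 0.09) or 4 Y-linked genes. Of 51 Wnt, cadherin and TGF-beta signalling genes, Src was higher and Fzd4, a Wnt receptor, lower (-0.64), both under PB only. In the Dlk1-Dio3 imprinted cluster, known for noncoding RNAs that PB raises, Mirg was called (0.456, 0.647, 0.318, 1.17 and 0.872 CPM in C57BL/6 and 2.26, 1.72, 3.24, 3.56 and 1.8 CPM in B6C3F1, log2 FC 1.77 ± 0.39, FDR 0.00175). Meg3 of the same cluster was at 8.90, 14.1, 9.83, 23.7 and 24.1 CPM in C57BL/6 and at 37.5, 21.9, 46.7, 40.3 and 27.5 CPM in B6C3F1, with overlap (log2 FC 1.18 ± 0.49, FDR 0.0877).

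**Figure D5:**
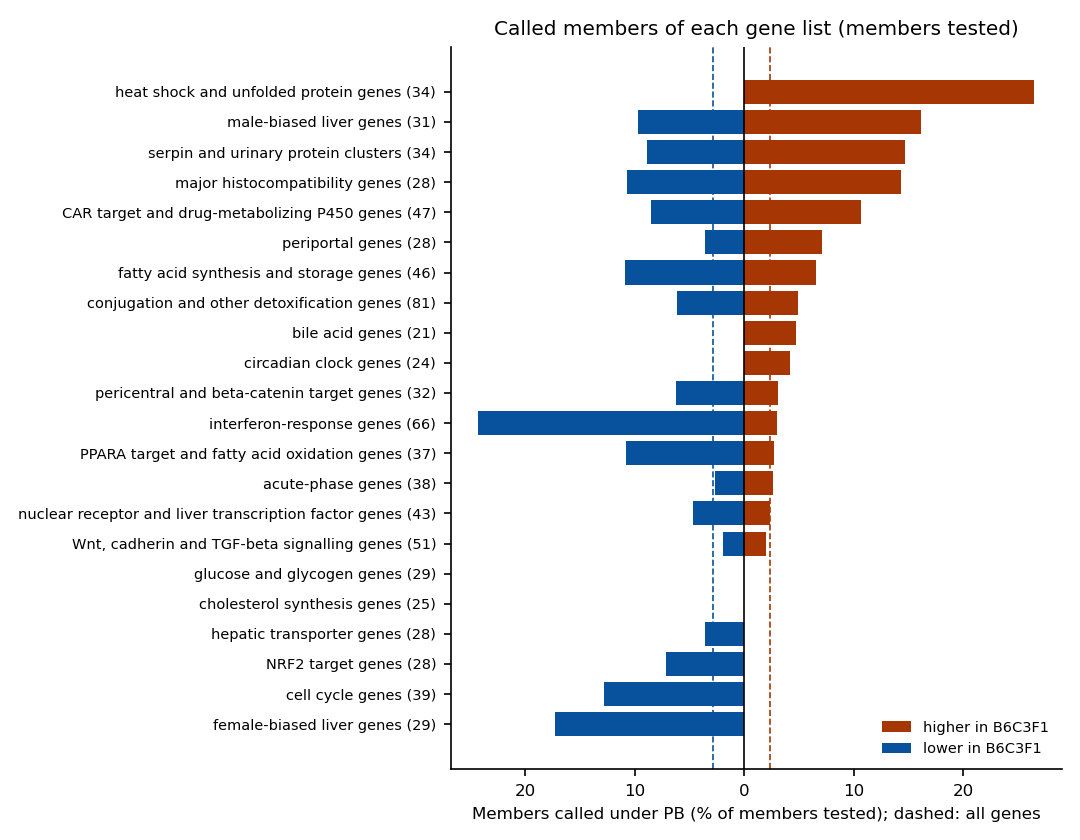
Percent of the tested members of each gene list called higher (right) or lower (left) in B6C3F1 under PB, for lists with at least 20 tested members, with dashed lines at 2.39% and 2.86%, the shares over all genes. Heat shock genes reach furthest to the right (9 of 34) and interferon-response genes furthest to the left (16 of 66).

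Of the other genes that the study's text names, Ddah1 was called under PB. The study names them for RNA or DHS changes with PB against vehicle, which is not the strain difference under PB given here. Cdh1, E-cadherin, was called in vehicle (log2 FC -0.90 ± 0.21) and not under PB (55.3 to 82.0 against 56.9 to 106 CPM, log2 FC 0.33 ± 0.18, FDR 0.189), with a change in difference of 1.24 that did not pass (unadjusted p 4.52e-04, FDR 0.182). PB raised Cdh1 by 1.47 in B6C3F1 and 0.23 in C57BL/6 on the log2 scale (limma FDR 1.69e-04 and 0.740). Ddah1, which degrades methylated arginines, was lower under PB (159, 119.5, 136, 117 and 105 CPM in C57BL/6 and 58.2, 103, 58.8, 59.8 and 70.0 CPM in B6C3F1, log2 FC -0.88 ± 0.16, FDR 7.77e-04) and not called in vehicle (-0.21). Tgfbr2 (-0.25), Klf9 (-0.37), Ank3 (-0.14), Stat3 (0.11), Klf4 (-0.18) and Tcf7l2 (0.17) were not called. Nnt, a mitochondrial transhydrogenase gene known to carry a deletion in C57BL/6J, was at 165 to 179 against 152 to 174 CPM (log2 FC -0.06 ± 0.04, FDR 0.319), where counts summed over the gene do not show single exons.

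Marker genes of liver cell types were compared because bulk RNA cannot tell fewer cells of a type from less RNA per cell. Hepatocyte markers had 1 of 10 called, Apoa1, the main protein of high-density lipoprotein (2019 to 3249 against 4319 to 5651 CPM, log2 FC 0.95 ± 0.12, FDR 1.94e-05). No marker was called among 8 cholangiocyte, 10 endothelial, 12 stellate cell, 13 Kupffer cell, 3 T and NK cell, 4 B cell, 2 neutrophil and 2 erythroid genes tested, and of 3 fat and pancreas markers Fabp4 was lower. In other fits at most 1 marker of each of these lists was called: a Kupffer cell marker was lower with DESeq2, with 4 against 4 PB mice and with the replicate block, a B cell marker was lower in 8 of the 30 alternatives, a cholangiocyte marker was lower without B6C3F1 vehicle mouse 5, and a T and NK cell marker was higher without B6C3F1 PB mouse 2. In vehicle 2 of the 4 B cell markers were called lower, with a list median log2 FC of -1.23 (PB -0.69), and 1 of 12 stellate cell markers was called lower. Summed over the list, Kupffer cell markers were at 283 to 506 CPM in C57BL/6 and at 249 to 305 CPM in B6C3F1 PB mice, with overlap (median log2 FC -0.36, vehicle -0.32). Cholangiocyte markers were at 87.3 to 110.5 against 71.5 to 85.7 CPM. Endothelial markers were at 791 to 905 against 718 to 799.9 CPM. Their part in the results was not tested.

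By chromosome, 710 of 13375 autosomal genes (5.31%) were called under PB and 14 of 425 on X (3.29%), the chromosome that males of both strains take from a C57BL/6 mother. The share per autosome ran from 3.69% on chromosome 10 to 7.05% on chromosome 6, so X was below each of them, as a description without a test.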

How the data were processed

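RNA-seq of 18 mouse livers and DNase-seq of the same animals were used, grouped by their labels, and members and gene lists were chosen with earlier results of these data known. The authors aligned RNA reads to mm10 with STAR 2.4.0f1, kept unique alignments with SAMtools, counted reads by strand over UCSC RefSeq genes, and deposited CPM scaled by TMM in edgeR 3.12.1. In the deposited CPM, values were whole multiples of what 1 read is worth in that sample, and these recovered counts were used for edgeR 4.0.16 and DESeq2 1.42.0 as alternatives. The deposited DNase signal is a normalized count per DHS, which the authors made with cutadapt 1.8, Bowtie2 2.1.0, Picard, MACS2 2.1.1.20160309 and DiffBind 1.16.3. No sample column was left unused.

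Of 13862 genes, the 13838 that reached 0.4 CPM in 3 or more mice of some group were fitted with limma 3.58.1 (R 4.3.3, trend and robust) on log2(CPM + 0.1) over all 18 samples, with 1 coefficient per group. All 98170 DHSs were fitted on log2(normalized count + 1) over the 10 PB-treated mice. The fits were tested on simulated counts. Genes were named if they were the 10 highest or 10 lowest in log2 FC without overlap and at a mean of at least 1 CPM, the 10 of each direction with the smallest interaction p among those called under PB only, at an interaction FDR of at most 0.05, among the up to 4 largest called members of a list, named in the paper's Results, or Nnt or Nr1i3. Further called list members are given by log2 FC alone, and the structured RNAs were chosen after their values were seen. Of the study's genes, Wnt16 was not among the genes tested, and some genes that the rule names are not reported here. Mice of the strains share no animal, and same-numbered PB mice did not deviate together (r -0.14 to 0.05 over 5 pairs), so the replicate block is an alternative only. Coordinates and promoters are from RefSeq on GRCm38.p6. Alternatives were other pseudocounts (0.5 and 1), filters, scalings, tests, cutoffs and sample sets, a block, and each of 18 mice left out in turn. Depth is known for all libraries, counting intervals (95%) and floors (3 reads) cover counting error only, and p-values measure the spread between single mice.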

Additional observations from a re-analysis of the deposited data

Results flagged for a closer look

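Among 212 groups of 5 mice examined (106 named genes in each strain under PB), 13 held a mouse whose gap to its nearest neighbour exceeded 0.71 of the group's range, and chance flags about 1 in 20 groups. In C57BL/6 these were Rprl3 in mouse 3 (high, 0.318 CPM), Pmm1 in mouse 4 (low, 1.75 CPM), Nostrin in mouse 3 (low, 19.0 CPM), Cyp2c69 in mouse 5 (low, 0.0415 CPM) and Ank3 in mouse 1 (low, 31.6 CPM). In B6C3F1 they were Myo9a (23.3 CPM), Fgf21 (1.84 CPM), Mcm2 (2.63 CPM) and Mcm4 (4.64 CPM), all low in mouse 5, Sult3a1 (high, 9.63 CPM), Foxa3 (low, 33.7 CPM) and Mup11 (low, 0.187 CPM) in mouse 2, and Stat3 in mouse 4 (low, 103 CPM).

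In 5 genes the strain difference under PB differed from that in vehicle at an interaction FDR of at most 0.05. The change was 1.32 for Smpd3, 0.66 for Nostrin, 2.70 for Tmc5, 0.56 for P2rx4 and -0.61 for Myo9a on the log2 scale. None of them reached the FDR of 0.01 used for calls.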

How the results depend on the processing

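The strain difference under PB (727 calls) became 2191 without a minimum |log2 FC|, and the strain difference in vehicle (503 calls) 803 at an FDR of 0.05 and 1364 without a minimum |log2 FC|. The 0 interaction calls became 3 with a pseudocount of 0.5 or of 1, 4 at an FDR of 0.05 and 15 with DESeq2. The 405 genes called under PB and not in vehicle became 266 with a pseudocount of 1 (245 shared) and 1253 without a minimum |log2 FC|. Without 1 mouse in turn the counts ran from 608 to 770 under PB, 358 to 521 in vehicle, 0 to 3 for the interaction, 317 to 461 for PB and not vehicle, and 436 to 680 for TSS DHSs. The lowest came without C57BL/6 PB mouse 3 (608 and 317), C57BL/6 vehicle mouse 1 (358) and C57BL/6 PB mouse 2 (436). With the replicate block the counts were 696, 447, 0, 399 and 537, respectively. The share of X genes called was 3.29% with limma and 3.06% with edgeR. DESeq2 called 864 and 632 genes under PB and in vehicle.

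Of 92 named genes called under PB, 76 kept the call without each of the 18 mice in turn. With only the 10 PB mice in the fit 14 lost it, all with the same sign: Fabp4, Fabp5, Cyp2c39, Cyp2c69, Sult3a1, Akr1b7, Mup9, Tnfrsf19, Cd36, Serpina3g, Mcm5, Cbr3, Hspa1a and Creld2. The number was 13 with 4 against 4 PB mice, 8 with the replicate block, 4 with a pseudocount of 1, 3 with quantile normalization, 2 with a pseudocount of 0.5 or with edgeR and 1 with centred medians. For the strain log2 FC under PB, signs turned only in uncalled genes, Klf4 with 4 against 4 PB mice (0.034) and between -0.47 and 0.020 without 1 mouse in turn (0.020 without B6C3F1 PB mouse 4), and Nr1i3, between -0.11 and 0.0090 (0.0090 without C57BL/6 PB mouse 1). The cause was not tested.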
